A study of Mus musculus with 20 samples.

Results

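Naive and activated CD4 T cells of the mouse were compared on 4 Affymetrix arrays, 2 for each state, out of 20 arrays that cover 10 sorted blood cell types. The arrays were chosen by their titles, which name CD4+ naive T-cells and CD4+ activated T-cells, and no measured value entered that choice. By the labels all cells came from wild-type female C57Bl/6 mice, which the series text also gives as CD45.1, between 12 and 14 weeks old. Each array carried a pool of 4 samples, for which 25000 to 50000 cells had been sorted by flow cytometry. Naive cells were sorted without treatment as far as the labels say, while the activated cells had received lipopolysaccharide (LPS), a bacterial cell wall component, at a dose and for a time that the labels leave out. The naive and activated CD8 T cells of the series, 2 arrays each with the same strain, age and pooling, served for comparison. The 2 arrays of each state are called biological replicates in the series text. The labels do not say whether their pools held different mice, although the 2 naive arrays differed in the sex-linked genes given below. The p-values therefore cover the variation from pool to pool alone.

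A naive CD4 T cell is a resting helper cell that circulates between blood and lymph nodes. It lives on little fuel, keeps its protein synthesis low and carries on its surface the receptors that bring it to lymph nodes and keep it alive there. When its antigen receptor and co-stimulatory receptors are engaged, it grows, takes up glucose and amino acids, builds nucleotides, sterols and ribosomes, begins to divide and replaces many of its surface receptors. The genes are described here in that order, from fuel and building blocks to signalling, trafficking, surface receptors and secreted factors.

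Values are log2 expression values made with GCRMA, a method that corrects background and summarises the probes of a gene, so that a difference of 1 is a change of 2-fold. A gene was tested if it exceeded a log2 value of 5 on at least 2 of the 20 arrays. It was called higher or lower in activated cells at a limma adjusted p under 0.05 with a log2 difference of at least 1. Differences are given as the estimate ± SE, the standard error from the model, with n = 2 arrays in each group. Where both arrays of the dimmer group lie under 5, the measured difference rests on a level near background, and the distance from 5 to the mean of the brighter group is given as "at least". Levels of different genes are not compared, since they come from different probe sets. In material from sorted populations, fewer cells of a type and less RNA per cell cannot be told apart.

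The 4 arrays resembled their own group most. Over the genes tested the correlation was 0.970 between the naive and 0.983 between the activated arrays, and 0.851 to 0.869 across groups. Between 7529 and 7807 of 18193 genes lay above 5 on an array. Cd3e, a chain of the T-cell receptor complex, read 8.71 and 8.82 in the naive and 7.84 and 7.72 in the activated arrays. Cd8a stayed between 4.58 and 5.63. Of 7 measured markers of NK cells, 2 lay above 5 on each naive and 1 on each activated array. Among them Klrd1 read 11.52 and 11.51 in the naive and 3.18 and 4.52 in the activated arrays. Eomes went the other way, with 7.56 and 6.60 in the naive and 9.67 and 11.30 in the activated arrays. The brightest probe set of Cd4 itself read between 3.68 and 4.35 on all 4 arrays, near background, so it does not check the label. Naive array 2 stood apart in genes of myeloid cells, with S100a9 at 10.68 against 3.05 in naive array 1 and 3.14 and 3.15 in the activated arrays. It also lacked the Y-linked signal of the other 3 arrays, although the labels give female mice for all 4. There Eif2s3y read 3.23, against 12.84, 11.98 and 10.73. The X-linked Xist read 4.28 and 10.55 in the naive and 3.93 and 8.14 in the activated arrays. The summed log2 level of 8 monocyte or macrophage markers, Csf1r among them, was 45.72 and 53.85 in the naive and 33.10 and 33.88 in the activated arrays. Of these 8 markers, 4 and 5 lay above 5 in the naive and 2 and 2 in the activated arrays. Among them Csf1r read 9.44 and 10.21 against 2.22 and 2.71, whereas Cd14 and Itgam were near background on all 4. Lyz2 read 5.09 and 9.32 in the naive and 3.90 and 3.98 in the activated arrays. Cd68 read 4.55 and 7.26 in the naive and 2.46 and 2.59 in the activated arrays. The array also carries control probe sets for the ends of Gapdh and beta actin transcripts. For Gapdh the 5′ set read 3.89 and 4.38 in the naive and 7.42 and 7.81 in the activated arrays, and the 3′ set 13.07 and 13.41 and then 14.79 and 14.90. The 5′ set of beta actin read 3.57 and 3.76 in the naive and 4.10 and 3.94 in the activated arrays. The part of these shifts in the differences described below was not tested.

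Activated CD4 T cells differed from naive ones in a large share of the transcriptome. Of 9810 genes tested, 1465 (14.9%) were called higher and 1786 (18.2%) lower in the activated arrays, and the median difference over all of them was 0.02. The 2 arrays of one state lay wholly on one side of the other state's arrays for 1464 of the higher and 1784 of the lower genes. In naive cells 217 of the genes called higher were under 5 on both arrays, and 359 of those called lower were so in activated cells. The call held under each of 15 other settings for 1892 of 3251 genes, counting for each gene only the settings that tested it. Not among these settings were a test against a 2-fold change and a fit of the 4 CD4 arrays alone. The latter fit called 1196 genes higher and 1444 lower. The genes were read through 58 lists of pathways, receptors and cell structures that hold 1584 genes, of which 1464 had a probe set of their own and 1321 were tested. Lck and Tcf7 were among those not analysed here. Of these, 340 were called higher and 307 lower.

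**Figure D1:**
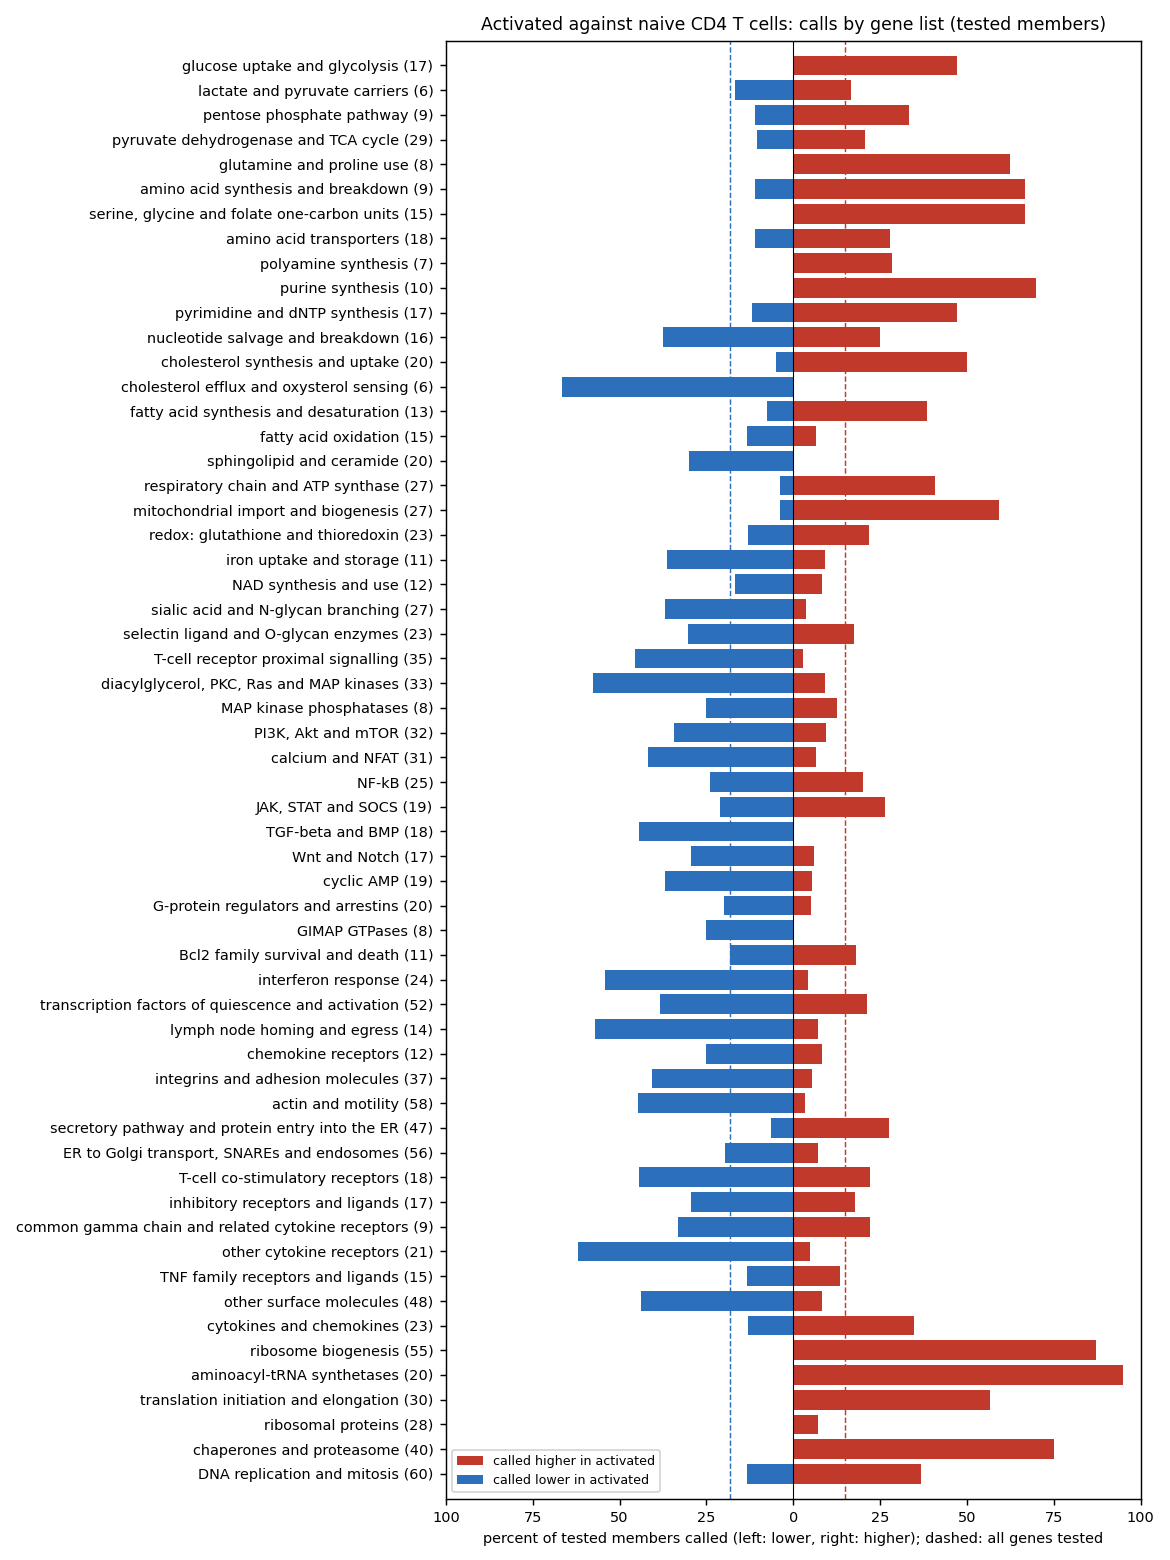
Share of the tested members of each gene list called higher (red, to the right) or lower (blue, to the left) in activated CD4 T cells, in percent, with the number of tested members in brackets. Dashed lines mark the shares over all genes tested, 14.9% higher and 18.2% lower. Bars for ribosome biogenesis and tRNA synthetases reach far to the right, and those for cytokine receptors, homing and Ras signalling to the left.

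Glycolysis, the breakdown of glucose to pyruvate and lactate, was represented by 17 tested genes, of which 8 were called higher and 0 lower (median difference 0.97 against 0.02 over all genes tested). The lower count was 1 without naive array 1 or activated array 2. At the entry, the glucose transporter gene Slc2a1 read 11.38 and 11.20 in the naive and 12.61 and 14.13 in the activated arrays (2.08 ± 0.56, adjusted p = 0.0105), and its call was lost without naive array 2 or without activated array 2. Hk2, the hexokinase that traps glucose in the cell, rose from 4.27 and 4.28 in the naive to 8.80 and 9.66 in the activated arrays, at least 4.23 higher. Tpi1, the triose phosphate isomerase, rose from 9.42 and 9.36 in the naive to 13.84 and 15.20 in the activated arrays (5.13 ± 0.53, adjusted p = 1.13e-05). In both enzymes each activated array lay over 4 log2 units above both naive arrays. Pfkl, which encodes the liver form of phosphofructokinase, the committed step, rose from 4.30 and 4.38 in the naive to 8.13 and 10.19 in the activated arrays, at least 4.16 higher. Pgam1 and Pkm, enzymes of later steps, differed by 2.92 ± 0.28 and 2.49 ± 0.48. Other steps were already bright in naive cells and were not called. Pgk1, phosphoglycerate kinase, read 13.74 and 13.80 in the naive and 13.93 and 14.00 in the activated arrays (0.20 ± 0.25, adjusted p = 0.618), and Ldha, which makes lactate, read 12.35 and 14.04 in the naive and 14.08 and 14.26 in the activated arrays (0.97 ± 0.39, adjusted p = 0.0685). In Ldha naive array 1 lay apart from the other 3 arrays. The transporter gene Slc2a3 read 11.23 and 11.35 in the naive and 9.73 and 11.68 in the activated arrays (-0.58 ± 0.50, adjusted p = 0.416), with the naive values inside the activated range.

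Glucose carbon leaves glycolysis by several routes. Of the pentose phosphate pathway, which makes ribose and NADPH, 3 of 9 tested genes were called higher and 1 lower, the latter 2 without naive array 1. Tkt, transketolase, rose from 12.82 and 13.54 in the naive to 14.89 and 15.06 in the activated arrays (1.79 ± 0.25, adjusted p = 1.19e-04), and Pgd and Prps1 differed by 1.60 ± 0.29 and 2.08 ± 0.48. H6pd, which runs the first steps inside the endoplasmic reticulum, fell from 7.63 and 8.26 in the naive to 5.52 and 5.95 in the activated arrays (-2.21 ± 0.31, adjusted p = 1.27e-04). Monocarboxylate carriers moved in opposite directions. Slc16a1 (MCT1), a lactate exporter, rose by 2.38 ± 0.66, a call that was lost without naive array 2 or without either activated array. Slc16a5, another member of the family, fell from 7.86 and 8.91 in the naive to 2.64 and 2.75 in the activated arrays, at least 3.38 lower. Over all genes tested 14.9% were called higher and 18.2% lower. Of the pyruvate dehydrogenase complex and the tricarboxylic acid cycle, 6 of 29 tested genes were called higher and 3 lower. Without naive array 1 these counts were 3 and 1, and without naive array 2 they were 4 and 1. Dlat, a subunit of pyruvate dehydrogenase, rose from 7.49 and 7.59 in the naive to 10.25 and 10.15 in the activated arrays (2.66 ± 0.39, adjusted p = 1.80e-04). Slc25a1, which exports citrate from mitochondria for lipid synthesis, differed by 2.52 ± 0.29 and Idh3a by 1.49 ± 0.37. The citrate synthase gene Cs (0.40 ± 0.24) and the malate dehydrogenase gene Mdh1 (0.20 ± 0.28) were bright on all 4 arrays and not called.

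Of 9 tested genes of amino acid synthesis and breakdown, 6 were called higher and 1 lower (median 3.21), and of 8 genes of glutamine and proline use 5 were higher and 0 lower (median 1.58). Asns, asparagine synthetase, rose from 3.47 and 3.37 in the naive to 11.85 and 13.23 in the activated arrays, at least 7.54 higher (9.12 ± 0.45, adjusted p = 3.75e-08). Gpt2, the mitochondrial alanine aminotransferase, rose from 3.68 and 2.87 in the naive to 10.23 and 11.93 in the activated arrays, at least 6.08 higher. Bcat1, the cytosolic transaminase of leucine, isoleucine and valine, rose from 2.29 and 2.20 in the naive to 10.00 and 9.86 in the activated arrays, at least 4.93 higher. All 3 were under 5 on both naive arrays and above it on both activated arrays. Cth, which makes cysteine from cystathionine, was at least 3.81 higher. Phgdh and Psat1, the first enzymes of serine synthesis from glucose carbon, were expressed in both states and rose further, by 3.48 ± 0.57 and 3.21 ± 0.60. Aspartate aminotransferases followed, with Got1 at least 2.39 and Got2 1.32 ± 0.26 higher. Bckdhb, of the complex that burns branched-chain amino acids, fell from 7.12 and 7.37 in the naive to 5.63 and 4.63 in the activated arrays (-2.12 ± 0.54, adjusted p = 0.00785), a call that was lost without activated array 2. Glud1 (-0.44 ± 0.34) and Glul (-0.35 ± 0.30), enzymes of glutamate and glutamine, were not called.

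Of 18 tested amino acid carrier genes 5 were called higher and 2 lower (median 0.30), against 14.9% and 18.2% over all genes tested. Not all of the lower calls held when a CD4 array was left out. Slc7a5 and Slc3a2 encode the light and heavy chain of the transporter LAT1, which takes up large neutral amino acids. Slc7a5 rose from 7.26 and 6.97 in the naive to 10.67 and 11.01 in the activated arrays (3.73 ± 0.53, adjusted p = 1.26e-04), and Slc3a2 rose from 7.89 and 9.11 in the naive to 10.82 and 11.09 in the activated arrays (2.46 ± 0.45, adjusted p = 8.80e-04). Slc1a4, a carrier of neutral amino acids, rose from 4.99 and 7.12 in the naive to 9.85 and 11.32 in the activated arrays (4.53 ± 0.64, adjusted p = 1.27e-04). Slc7a3, a carrier of arginine and lysine, was at least 1.63 higher. Against these gains, Slc43a2 (LAT4), a facilitated carrier of the same large neutral amino acids, fell from 12.62 and 12.39 in the naive to 7.62 and 8.30 in the activated arrays (-4.54 ± 0.30, adjusted p = 3.86e-07). The glutamine carrier genes Slc38a2 (-0.21 ± 0.23) and Slc38a1 (0.35 ± 1.15) were expressed in both states and not called.

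The promoters of the amino acid genes were searched for the response element to which ATF4, the transcription factor of amino acid shortage, binds together with C/EBP partners. The search used 300 bases of RefSeq promoter (GRCm38.p6), 250 before to 50 after the gene start, and the letters TGATGNAAN on both strands. Such a match was found for 4 of 13 tRNA synthetase genes with a promoter (30.8%), for 3 of 14 amino acid transporters (21.4%) and for 1 of 8 genes of amino acid synthesis (12.5%). Among all genes tested with a promoter the share was 2.30%, among genes called higher 2.69% and among genes called lower 2.74%. These are counts of letters, with no test, and a match is not a binding site. Stretches of promoters of genes called higher are shown 5′ to 3′ on the strand of the gene with the match in capitals, since these genes rose together, although the call of Tars was lost when any 1 CD4 array was left out. Each stretch holds the match with bases around it. The stretch of Asns is chr6:7693210-7693292 on the minus strand. The stretch of Gars is chr6:55037910-55038000 on the plus strand. The stretch of Tars is chr15:11399659-11399734 on the minus strand. The stretch of Slc1a4 is chr11:20332710-20332778 on the minus strand. The stretch of Aars is chr8:111033669-111033788 on the plus strand. The stretch of Got1 is chr19:43524649-43524768 on the minus strand.

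Asns: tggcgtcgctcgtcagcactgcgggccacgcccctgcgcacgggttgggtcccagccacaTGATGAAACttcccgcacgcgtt
Gars: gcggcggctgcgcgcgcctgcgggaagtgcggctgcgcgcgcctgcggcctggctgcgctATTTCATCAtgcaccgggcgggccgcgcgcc
Tars: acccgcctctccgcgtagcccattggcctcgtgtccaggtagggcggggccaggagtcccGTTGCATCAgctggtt
Slc1a4: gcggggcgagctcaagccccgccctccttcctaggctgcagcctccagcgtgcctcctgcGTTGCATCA
Aars: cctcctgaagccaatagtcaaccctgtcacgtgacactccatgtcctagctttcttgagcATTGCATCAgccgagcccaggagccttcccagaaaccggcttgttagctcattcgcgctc
Got1: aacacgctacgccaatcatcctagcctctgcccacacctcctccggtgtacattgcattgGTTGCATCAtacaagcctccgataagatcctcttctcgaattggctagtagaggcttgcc

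One-carbon metabolism moves single carbon units on folate for the synthesis of purines and thymidylate. Of 15 tested genes, 10 were called higher and 0 lower (median 2.10). Slc19a1, the reduced folate carrier, rose from 5.91 and 6.20 in the naive to 10.53 and 10.90 in the activated arrays (4.66 ± 0.37, adjusted p = 1.87e-06). Shmt2, the mitochondrial enzyme that takes the carbon unit from serine, rose from 9.65 and 10.14 in the naive to 13.78 and 14.04 in the activated arrays (4.01 ± 0.49, adjusted p = 4.13e-05). Mthfd1, the trifunctional cytosolic enzyme, rose from 11.36 and 10.59 in the naive to 13.67 and 13.89 in the activated arrays (2.81 ± 0.29, adjusted p = 1.04e-05). In each, both activated arrays lay over 2 log2 units above both naive arrays. Gcsh, of the glycine cleavage system, differed by 3.24 ± 0.40 and the mitochondrial synthetase Mthfd1l by 2.31 ± 0.38. Mthfd2, its mitochondrial partner, read 10.09 and 9.84 in the naive and 12.28 and 12.58 in the activated arrays (2.46 ± 0.80, adjusted p = 0.0277), a call that was lost when any 1 of the CD4 arrays was left out. The methionine synthase gene Mtr (0.97 ± 0.39) and Mat2b (-1.19 ± 0.52) were not called.

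Many genes of nucleotide synthesis were called higher. Of the purine synthesis genes, 7 of 10 tested were called higher and 0 lower (median 1.96), and of pyrimidine and deoxynucleotide synthesis 8 of 17 were higher and 2 lower (median 1.36). The purine count was 3 without naive array 1 and 4 without activated array 1. Ppat, the first committed enzyme of purine synthesis, rose from 5.92 and 7.35 in the naive to 10.55 and 10.14 in the activated arrays (3.71 ± 0.61, adjusted p = 3.94e-04). Pfas differed by 2.81 ± 0.27. Cad, which carries the first steps of pyrimidine synthesis, rose from 8.86 and 9.13 in the naive to 12.17 and 12.44 in the activated arrays (3.31 ± 0.47, adjusted p = 1.24e-04), and Umps, which completes the ring to UMP, differed by 3.23 ± 0.35. Ctps, the main CTP synthase, rose by 3.70 ± 0.60 while its relative Ctps2 fell from 11.35 and 11.65 in the naive to 9.37 and 9.64 in the activated arrays (-2.00 ± 0.47, adjusted p = 0.00437). Paics, already bright in naive cells, was not called (0.55 ± 0.60). Of 16 tested genes of salvage and breakdown, 4 were called higher and 6 lower, and the latter count was 4 without either activated array. Ampd3, an AMP deaminase, fell from 9.38 and 9.32 in the naive to 4.77 and 4.99 in the activated arrays, at least 4.35 lower. Its relative Ampd1 was at least 1.70 lower, with the naive arrays apart at 5.36 and 8.04. Nt5e (CD73), the surface enzyme that turns AMP into adenosine, fell from 7.16 and 7.77 in the naive to 3.20 and 3.95 in the activated arrays, at least 2.46 lower. Aprt, which recovers adenine, was called higher (2.10 ± 0.38), as were Ampd2, a further AMP deaminase (1.45 ± 0.32), and Pnp, a nucleoside phosphorylase (1.16 ± 0.24). Ada, adenosine deaminase, was higher too (1.72 ± 0.48), a call that was lost without naive array 1 or activated array 1. Of 7 tested polyamine genes 2 were called higher. These were Srm, spermidine synthase (4.67 ± 0.48), and Odc1, ornithine decarboxylase, which read 11.91 and 11.44 in the naive and 14.11 and 14.16 in the activated arrays (2.46 ± 0.67, adjusted p = 0.0111) and lost its call without naive array 2 or activated array 1.

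Sterol genes were called in both directions. Of 20 tested genes of cholesterol synthesis and uptake, 10 were called higher and 1 lower (median 1.40), and each count was the same when any single CD4 array was left out. Of 6 tested genes of cholesterol efflux and oxysterol sensing, 0 were higher and 4 lower (median -2.62). Cyp51, lanosterol demethylase, rose from 9.55 and 9.68 in the naive to 12.71 and 12.54 in the activated arrays (3.01 ± 0.46, adjusted p = 2.41e-04). Sqle, squalene epoxidase, rose from 7.52 and 8.49 in the naive to 10.64 and 10.56 in the activated arrays (2.60 ± 0.56, adjusted p = 0.00245), and Lss, which closes the sterol ring next, differed by 2.61 ± 0.38. Fdft1, squalene synthase, differed by 1.83 ± 0.37. Hmgcs1, near the top of the pathway, rose from 13.64 and 13.62 in the naive to 14.76 and 14.78 in the activated arrays (1.14 ± 0.24, adjusted p = 0.00204). Insig2, which holds the sterol sensor in the endoplasmic reticulum, was the member called lower (-1.39 ± 0.30). Among the efflux genes, Abcg1, an exporter of cholesterol to lipoproteins, fell from 10.13 and 10.69 in the naive to 8.36 and 7.61 in the activated arrays (-2.42 ± 0.28, adjusted p = 3.00e-05). Abca1, the exporter to apolipoprotein A1, fell from 7.13 and 8.87 in the naive to 4.87 and 5.13 in the activated arrays (-3.00 ± 0.62, adjusted p = 0.00201), and Abca7 differed by -2.81 ± 0.46. Mylip (IDOL), which marks the low density lipoprotein receptor for breakdown, fell from 9.41 and 9.33 in the naive to 2.84 and 5.34 in the activated arrays (-5.28 ± 0.59, adjusted p = 2.14e-05). The regulator gene Srebf1 was not called (-0.10 ± 0.44). The sterol response element letters TCACNCCAC were found in the promoter of 1 of 17 genes of the synthesis list (5.88%), that of Hmgcs1, and in 0.899% of all genes tested with a promoter. The stretch of Hmgcs1 is chr13:119690154-119690273 on the plus strand.

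Hmgcs1: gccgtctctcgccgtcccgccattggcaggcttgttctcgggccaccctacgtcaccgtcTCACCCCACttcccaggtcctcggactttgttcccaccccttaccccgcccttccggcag

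Of 13 tested genes of fatty acid synthesis, 5 were called higher and 1 lower. Without either activated array 2 were higher and without either naive array 3, and without naive array 2 the lower count was 2. Fasn, fatty acid synthase, rose from 9.44 and 9.20 in the naive to 11.34 and 11.34 in the activated arrays (2.02 ± 0.36, adjusted p = 7.49e-04). Scd2, a desaturase, was not called (0.99 ± 0.69). In fatty acid oxidation 1 of 15 tested genes was called higher and 2 lower, against 14.9% and 18.2% over all genes tested. Cpt1a, which admits fatty acids to mitochondria, fell from 11.95 and 10.96 in the naive to 8.06 and 8.49 in the activated arrays (-3.18 ± 0.52, adjusted p = 3.50e-04). Acaa2, a mitochondrial thiolase, differed by -2.54 ± 0.41, and Hadhb (-0.81 ± 0.28) was not called. Of 20 tested sphingolipid genes 0 were called higher and 6 lower (median -0.71), a count of 4 without activated array 1. Smpdl3a, a secreted phosphodiesterase of the acid sphingomyelinase family, fell from 11.96 and 12.13 in the naive to 4.02 and 4.20 in the activated arrays, at least 7.05 lower (-7.93 ± 0.56, adjusted p = 6.16e-07). Sgms1, sphingomyelin synthase, fell from 11.28 and 11.31 in the naive to 7.14 and 6.94 in the activated arrays (-4.25 ± 0.83, adjusted p = 0.00131). Ceramide synthase Cers4 and glucosylceramide synthase Ugcg differed by -3.98 ± 0.45 and -2.56 ± 0.48.

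**Figure D2:**
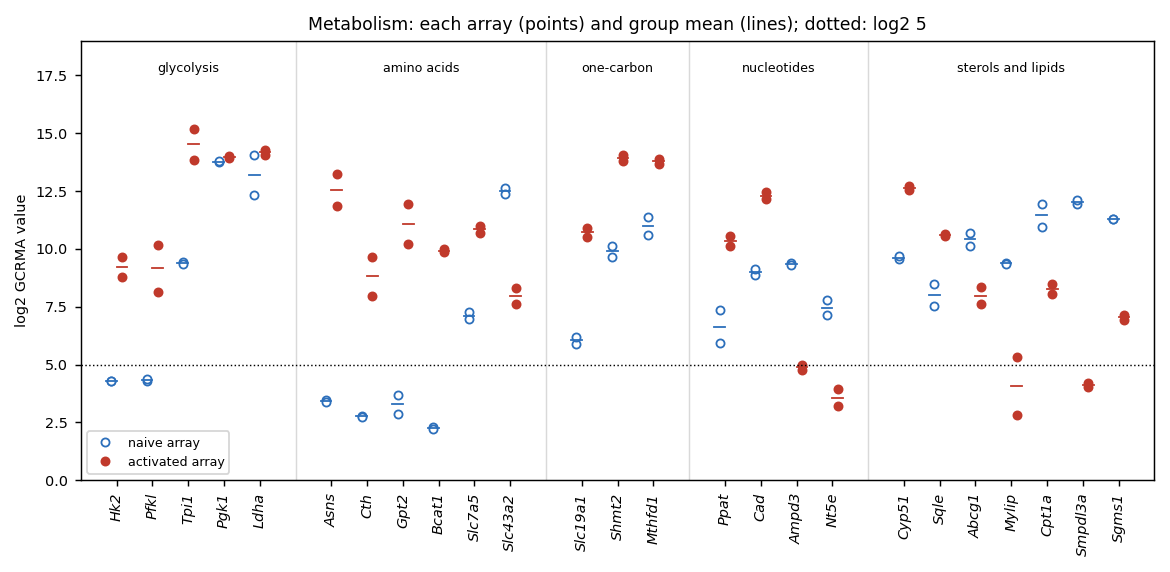
Log2 GCRMA values of metabolic genes on each naive (open blue) and activated (filled red) CD4 array, with a line for the mean of each group and a dotted line at log2 5. Asns, Gpt2 and Bcat1 lie under 5 in both naive arrays and at 9.86 or above in both activated arrays, and Slc43a2, Smpdl3a and Mylip go the other way.

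Of 27 tested genes of mitochondrial import and biogenesis, 16 were called higher and 1 lower (median 1.55). Mrpl12, a mitochondrial ribosomal protein, rose from 7.22 and 8.77 in the naive to 12.06 and 11.82 in the activated arrays (3.94 ± 0.41, adjusted p = 1.25e-05). Timm17a, a channel subunit of the inner membrane, rose from 7.53 and 7.68 in the naive to 11.35 and 10.77 in the activated arrays (3.46 ± 0.38, adjusted p = 1.80e-05), and Hspe1, the co-chaperone of mitochondrial Hsp60, differed by 3.29 ± 0.39. Nrf1, a transcription factor of mitochondrial genes, was the member called lower and fell from 9.78 and 10.18 in the naive to 8.50 and 8.17 in the activated arrays (-1.65 ± 0.33, adjusted p = 0.00147). In the respiratory chain and ATP synthase 11 of 27 tested genes were called higher and 1 lower (median 0.94), but 4 were higher without naive array 1 and 4 without activated array 1. Cycs, cytochrome c, rose from 12.01 and 12.24 in the naive to 13.86 and 13.78 in the activated arrays (1.70 ± 0.26, adjusted p = 2.43e-04). The bright subunit genes Atp5a1 (-0.02 ± 0.20) and Cox6a1 (0.56 ± 0.25) were not called. Cox7a2l, which links respiratory complexes, was called lower (-1.59 ± 0.32).

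Among redox genes 5 of 23 tested were called higher and 3 lower, against 14.9% and 18.2% over all genes tested. Txn1, cytosolic thioredoxin, rose from 11.37 and 12.27 in the naive to 14.57 and 14.03 in the activated arrays (2.48 ± 0.28, adjusted p = 2.61e-05), and its mitochondrial form Txn2 differed by 2.40 ± 0.37. Their inhibitor moved the other way. Txnip, which binds thioredoxin and also lowers glucose uptake, fell from 13.20 and 13.62 in the naive to 7.10 and 8.68 in the activated arrays (-5.52 ± 0.47, adjusted p = 2.92e-06). Iron genes counted 1 of 11 higher and 4 lower, the latter 2 without naive array 2 or without activated array 1. Tfrc, the transferrin receptor that brings iron in, rose from 11.50 and 11.73 in the naive to 14.11 and 14.14 in the activated arrays (2.51 ± 0.51, adjusted p = 0.00172), while Slc40a1 (ferroportin), which lets iron out, fell from 7.11 and 7.88 in the naive to 2.81 and 2.28 in the activated arrays, at least 2.50 lower. Of 12 tested genes of NAD metabolism, 1 was called higher and 2 lower, against 14.9% and 18.2% over all genes tested. The higher one was Nampt, the salvage enzyme (3.16 ± 0.43). Of the lower ones, Qprt, of the synthesis from tryptophan, was at least 3.62 lower. Sirt7 differed by -1.10, a call that was lost without naive array 2.

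Many genes of the growth machinery rose. Of 55 tested genes of ribosome biogenesis 48 were called higher and 0 lower (median 2.16), of 20 tRNA synthetase genes 19 and 0 (median 2.17), of 30 translation factors 17 and 0 (median 1.17) and of 40 chaperone and proteasome genes 30 and 0 (median 1.36). Nop16, a factor of the large ribosomal subunit, rose from 3.72 and 3.46 in the naive to 9.02 and 8.65 in the activated arrays, at least 3.84 higher. Polr1b, a subunit of the polymerase that makes ribosomal RNA, rose from 4.44 and 5.38 in the naive to 9.67 and 9.62 in the activated arrays (4.74 ± 0.54, adjusted p = 2.53e-05). Aars, alanyl-tRNA synthetase, rose from 7.50 and 8.33 in the naive to 11.46 and 11.64 in the activated arrays (3.63 ± 0.34, adjusted p = 5.49e-06), and Gars, the glycyl enzyme, differed by 2.27 ± 0.34. Ribosomal proteins themselves were near the top of the scale in both states. Of 28 tested, 2 were called higher, 1 without naive array 1 or either activated array, and 0 lower, with a median of 0.02. Rpl35 read 15.95 and 15.93 in the naive and 16.25 and 16.17 in the activated arrays (0.27 ± 0.22, adjusted p = 0.391). The E-box letters CACGTG, the core bound by Myc and other factors of its family and the same on both strands, were present in 14 of 50 promoters of the ribosome biogenesis list (28.0%) and 4 of 13 of the tRNA synthetase list (30.8%). The shares were 10.7% of all genes tested with a promoter, 14.3% of genes called higher and 9.05% of genes called lower. The stretch of Nop2 is chr6:125131763-125131882 on the plus strand. Nop2 encodes a methyltransferase of ribosomal RNA that rose by 3.08 ± 0.40. The stretch of Rrn3 is chr16:13780449-13780543 on the plus strand. Rrn3 encodes an initiation factor of the same polymerase and rose by 2.10 ± 0.54, a call that was lost without activated array 1.

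Nop2: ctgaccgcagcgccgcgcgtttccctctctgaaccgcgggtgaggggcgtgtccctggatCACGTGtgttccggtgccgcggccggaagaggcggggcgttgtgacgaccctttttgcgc
Rrn3: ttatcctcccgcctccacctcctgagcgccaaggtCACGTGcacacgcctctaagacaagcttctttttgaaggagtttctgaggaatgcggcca

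Cell cycle genes were mixed. Of 60 tested genes of DNA replication and mitosis 22 were called higher and 8 lower (median 0.56). Mcm5, of the replicative helicase, rose from 11.92 and 12.05 in the naive to 15.08 and 14.79 in the activated arrays (2.95 ± 0.34, adjusted p = 2.85e-05). Cdk4, the kinase of the first phase of the cycle, rose from 6.74 and 8.26 in the naive to 11.03 and 10.81 in the activated arrays (3.42 ± 0.61, adjusted p = 7.27e-04), and its relative Cdk6 differed by 2.60 ± 0.38. Cyclin-dependent kinase inhibitors moved in opposite ways. Cdkn1a (p21) was at least 3.14 higher, whereas Cdkn1b (p27) fell from 11.84 and 11.54 in the naive to 9.74 and 10.49 in the activated arrays (-1.57 ± 0.29, adjusted p = 7.74e-04). Rbl2 and Ccng2, genes linked to rest, differed by -3.04 ± 0.53 and -3.63 ± 0.52. Mki67, a marker of dividing cells, was lower in activated cells at 12.67 and 11.20 in the naive and 8.77 and 9.91 in the activated arrays (-2.60 ± 0.72, adjusted p = 0.0119). That call was lost without naive array 1 or without activated array 1. Mki67 was thus bright on both arrays labelled naive, and the part of dividing cells there was not tested.

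Genes that act next to the antigen receptor were mostly lower in activated cells or not called. Of 35 tested genes of receptor-proximal signalling, 16 were called lower and 1 higher (median -1.30 against 0.02 over all genes tested). Cd3g, a chain of the receptor complex, fell from 11.15 and 11.54 in the naive to 8.49 and 8.59 in the activated arrays (-2.81 ± 0.40, adjusted p = 1.35e-04). Fyb (ADAP) and Skap1, adaptors that couple the receptor to integrins, differed by -3.04 ± 0.32 and -5.66 ± 0.38. Skap1 fell from 11.37 and 10.49 in the naive to 5.30 and 5.24 in the activated arrays. Pag1, a membrane adaptor that recruits an inhibitory kinase, fell from 13.31 and 13.43 in the naive to 10.45 and 10.47 in the activated arrays (-2.91 ± 0.41, adjusted p = 1.15e-04). Ptpn22, an inhibitory phosphatase, differed by -2.00 ± 0.32. Both activating and restraining components were thus among the lower genes. The kinase gene Zap70 read 9.76 and 9.14 in the naive and 9.99 and 10.31 in the activated arrays (0.70 ± 0.54, adjusted p = 0.362), the scaffold gene Lat (-0.68 ± 0.38) and the zeta chain gene Cd247 (-0.25 ± 0.40) were not called. The member called higher was Sh2d2a, a T cell adaptor (1.82 ± 0.34), which lost its call in a fit of the 4 CD4 arrays alone.

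Below the receptor, diacylglycerol, protein kinase C and Ras pass the signal to MAP kinases. Of 33 tested genes 19 were called lower and 3 higher (median -1.19). In CD8 T cells 10 were lower, all of them also lower in CD4 cells, and 4 higher. The difference between the CD4 and CD8 effects was called for 1 member. Rasa3, a GTPase activator that switches Ras and Rap off, fell from 11.37 and 11.59 in the naive to 3.32 and 4.02 in the activated arrays, at least 6.48 lower (-7.81 ± 0.96, adjusted p = 4.47e-05). Dgka, the kinase that removes diacylglycerol, fell from 13.65 and 13.91 in the naive to 10.73 and 10.58 in the activated arrays (-3.12 ± 0.51, adjusted p = 3.61e-04). Rasgrp2 and Prkcb, further members of this list, differed by -3.08 ± 0.48 and -2.75 ± 0.45. The higher genes included Spred1, an inhibitor of Raf activation, at least 1.98 higher, and the scaffold gene Ksr1, which rose from 5.06 and 4.83 in the naive to 7.66 and 7.78 in the activated arrays (2.77 ± 0.30, adjusted p = 1.73e-05). Nras was not called (-0.71 ± 0.34). Among MAP kinase phosphatases 1 of 8 tested was higher, 2 without naive array 2, and 2 lower, 1 without activated array 1. Dusp4, a nuclear phosphatase, rose from 2.56 and 2.67 in the naive to 8.51 and 8.16 in the activated arrays, at least 3.34 higher (5.72 ± 0.25, adjusted p = 1.27e-08), while Dusp6, its cytoplasmic relative, fell from 6.62 and 6.37 in the naive to 3.10 and 3.11 in the activated arrays, at least 1.50 lower.

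The PI3K, Akt and mTOR list, which ties receptors to growth, had 3 of 32 tested genes called higher and 11 lower (median -0.94), and 5 were higher without naive array 2. Pik3ip1, an inhibitor of PI3K at the membrane, fell from 10.89 and 11.94 in the naive to 3.94 and 3.99 in the activated arrays, at least 6.41 lower (-7.45 ± 0.65, adjusted p = 3.40e-06). Pik3cg, the gamma catalytic subunit, fell from 8.77 and 8.35 in the naive to 3.46 and 4.60 in the activated arrays, at least 3.56 lower, and Inpp4a, a phosphatase of its lipid products, differed by -4.41 ± 0.54. Sesn1 and Tsc1, which restrain mTOR complex 1, differed by -3.10 ± 0.42 and -1.19 ± 0.23. The 2 partner proteins of mTOR went opposite ways. Rictor, of complex 2, fell from 8.95 and 7.91 in the naive to 3.33 and 5.27 in the activated arrays (-4.13 ± 0.57, adjusted p = 1.03e-04), and Rptor, of complex 1, rose from 4.58 and 4.70 in the naive to 6.04 and 6.26 in the activated arrays, at least 1.15 higher. Eif4ebp1, the translation repressor that mTOR inactivates, rose from 6.06 and 5.49 in the naive to 11.26 and 12.25 in the activated arrays (5.98 ± 0.46, adjusted p = 1.24e-06). Mtor itself (0.60 ± 0.32) and Rheb (-0.20 ± 0.24) were not called.

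Calcium signalling showed 13 of 31 tested genes called lower and 2 higher (median -0.78), and the 2 higher calls were lost when any 1 of the 4 CD4 arrays was left out. Itpkb, a kinase that removes the calcium-releasing messenger, fell from 10.63 and 9.27 in the naive to 5.17 and 6.00 in the activated arrays (-4.37 ± 0.71, adjusted p = 3.49e-04). Ppp3ca, the catalytic subunit of calcineurin, fell from 8.79 and 9.93 in the naive to 6.19 and 4.91 in the activated arrays (-3.81 ± 0.46, adjusted p = 3.66e-05), whereas the second catalytic gene Ppp3cb was not called (-0.64 ± 0.28). Camk1d and Trpv2, a kinase and a cation channel, differed by -4.22 ± 0.75 and -3.60 ± 0.46. Kcnn4, the potassium channel that sustains calcium entry, read 13.00 and 13.03 in the naive and 12.91 and 12.83 in the activated arrays (-0.14 ± 0.39, adjusted p = 0.86), with no separation of the groups. Nfatc2 was not called (-0.78 ± 0.37).

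Genes of cytokine signalling were called in both directions. In the JAK, STAT and SOCS list 5 of 19 tested genes were called higher and 4 lower, and all 5 higher calls held without any 1 CD4 array. Cish, a feedback inhibitor induced by STAT5, rose from 7.25 and 7.25 in the naive to 11.72 and 11.45 in the activated arrays (4.33 ± 0.45, adjusted p = 1.24e-05), and Socs2, of the same family, rose from 5.08 and 6.64 in the naive to 8.85 and 10.51 in the activated arrays (3.82 ± 0.67, adjusted p = 5.88e-04). The kinase genes Pim2 and Pim1, known targets of STAT5, differed by 3.31 ± 0.32 and 2.23 ± 0.45, and Stat5a rose from 6.07 and 6.59 in the naive to 9.06 and 9.36 in the activated arrays (2.88 ± 0.51, adjusted p = 6.98e-04). The lower genes were Jak1, which fell from 11.29 and 12.17 in the naive to 8.76 and 9.22 in the activated arrays (-2.74 ± 0.46, adjusted p = 4.35e-04), Socs3 (-2.02 ± 0.50), Pias1 (-1.45 ± 0.27) and Stat3 (-2.57 ± 0.69). The calls of Socs3 and Stat3 were lost without activated array 1, and that of Stat3 also without naive array 1. The probe set of Stat3 that is brightest in CD4 cells gave 0.18 in place of a fall, so no direction is drawn for it. The lower count was 2 without activated array 1.

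Of 18 tested genes of the TGF-beta and BMP list 8 were called lower and 0 higher (median -1.21). Without naive array 2 the lower count was 5, and without activated array 1 the higher count was 1. Tgfbr2, the ligand-binding receptor, fell from 11.89 and 12.47 in the naive to 9.25 and 8.93 in the activated arrays (-3.09 ± 0.45, adjusted p = 1.58e-04). The activin receptor gene Acvr1b differed by -1.92 ± 0.24 and Smad7, a feedback inhibitor, by -2.12 ± 0.46; Tgfbr1 (-0.97 ± 0.30) passed the p-value but not the 2-fold threshold. In the Wnt and Notch list 5 of 17 were lower and 1 higher, the latter 0 without naive array 1 or without activated array 2. Axin2, a target of Wnt signals, fell from 8.93 and 10.23 in the naive to 6.72 and 5.68 in the activated arrays (-3.38 ± 0.44, adjusted p = 6.95e-05), and Lef1, a transcription factor of the same pathway, differed by -2.08 ± 0.25. Dtx1, a regulator and target of Notch, was at least 3.61 lower (-5.48 ± 0.41, adjusted p = 1.06e-06).

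In the NF-kB list 5 of 25 tested genes were called higher and 6 lower (median -0.01), against 14.9% and 18.2% over all genes tested. The higher genes included subunits. Rel, the c-Rel subunit, rose from 3.55 and 3.42 in the naive to 5.88 and 6.06 in the activated arrays, at least 0.97 higher. Nfkb2, the p100 precursor, was at least 2.56 higher, and the inhibitor gene Nfkbib differed by 2.99 ± 0.46. Lower were the kinase gene Ikbkb (-1.81 ± 0.22), Ikbke (-2.28 ± 0.29) and the adaptor gene Traf5 (-3.17 ± 0.45). Without activated array 2 the counts were 3 and 7, and without naive array 1 they were 3 and 4. Nfkbia (-0.24 ± 0.28) was bright and not called.

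Genes of cyclic AMP and G-protein signalling were mostly lower or not called. Among the G-protein regulators the share called lower was near the 18.2% over all genes tested. Of 19 tested cyclic AMP genes 7 were called lower and 1 higher, with 4 lower without naive array 2 and 3 without activated array 1. Adcy7, an adenylyl cyclase, fell from 14.54 and 14.43 in the naive to 10.77 and 10.78 in the activated arrays (-3.71 ± 0.46, adjusted p = 5.00e-05), and the phosphodiesterase genes Pde2a and Pde4b differed by -3.60 ± 0.41 and -2.23 ± 0.38. Crem, a transcription factor induced by cyclic AMP, was called higher (3.08 ± 0.41). Of 20 tested G-protein regulators 1 was called higher and 4 lower, the latter 7 without naive array 1. Rgs16, which shortens signals of chemokine receptors, rose from 6.77 and 6.34 in the naive to 12.13 and 12.51 in the activated arrays (5.76 ± 0.50, adjusted p = 3.11e-06), while its relative Rgs2 fell from 12.17 and 12.31 in the naive to 7.97 and 9.09 in the activated arrays (-3.71 ± 0.40, adjusted p = 1.65e-05). All 8 GIMAP GTPases, small proteins that keep resting lymphocytes alive, were tested, with 2 called lower and a median of -2.09. Gimap3 and Gimap6 differed by -2.54 ± 0.32 and -2.35 ± 0.27, and Gimap4 was not called (-2.13 ± 0.98, adjusted p = 0.107). Of 11 Bcl2 family genes 2 were higher and 2 lower, against 14.9% and 18.2% over all genes tested. Bcl2l1 (Bcl-xL), which blocks death, rose from 6.92 and 6.78 in the naive to 11.26 and 10.88 in the activated arrays (4.22 ± 0.25, adjusted p = 1.61e-07), Mcl1 was lower (-1.11 ± 0.21), and Bcl2 was not called, with the naive arrays apart at 11.71 and 9.75.

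Interferon response genes were lower in activated cells. Of 24 tested 13 were called lower and 1 higher (median -1.80), with 10 lower without naive array 2. Rsad2 (viperin) fell from 9.30 and 9.49 in the naive to 4.33 and 3.91 in the activated arrays, at least 4.39 lower, and Oas2, a sensor of viral RNA, at least 3.16 lower. Rtp4 fell from 10.51 and 10.53 in the naive to 6.37 and 6.79 in the activated arrays (-3.94 ± 0.48, adjusted p = 3.95e-05). The gamma interferon inducible genes Igtp (0.67 ± 0.26) and Ifi47 (0.12 ± 0.39) were not called, and Gbp2, of the same class, was the 1 member called higher (2.29 ± 0.44).

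Transcription factors were called in both directions. Of 52 tested 11 were called higher and 20 lower, the latter 12 without activated array 1. Irf4, whose level follows the strength of the antigen signal, rose from 4.63 and 5.59 in the naive to 12.32 and 12.45 in the activated arrays (7.28 ± 0.83, adjusted p = 2.51e-05). Myc, which drives growth genes, rose from 3.20 and 4.37 in the naive to 7.61 and 8.77 in the activated arrays, at least 3.19 higher, and Hif1a, a regulator of glycolysis, rose from 9.92 and 10.05 in the naive to 11.60 and 12.37 in the activated arrays (2.00 ± 0.33, adjusted p = 4.34e-04). Tbx21 (T-bet), the factor of type 1 helper cells, rose from 7.03 and 6.91 in the naive to 10.74 and 11.22 in the activated arrays (4.01 ± 0.38, adjusted p = 5.73e-06). On the side of rest, Mxd4, an antagonist of Myc, fell from 10.86 and 10.75 in the naive to 5.01 and 4.60 in the activated arrays (-6.00 ± 0.47, adjusted p = 1.43e-06). Klf2 and Klf3, which keep T cells quiescent and circulating, differed by -3.32 ± 0.76 and -3.06 ± 0.36, and Foxo3 by -1.06 ± 0.21. Foxo1, a factor of the same class, read 12.93 and 13.24 in the naive and 11.79 and 11.74 in the activated arrays (-1.32 ± 0.44, adjusted p = 0.0293), a call that was lost when any 1 of the CD4 arrays was left out. Fos, an early response gene, fell from 10.93 and 12.52 in the naive to 7.08 and 6.62 in the activated arrays (-4.88 ± 0.99, adjusted p = 0.00172). Foxp3, the factor of regulatory T cells, was too dim to be tested and uneven at 3.05 and 4.76 in the naive and 3.99 and 8.55 in the activated arrays.

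**Figure D3:**
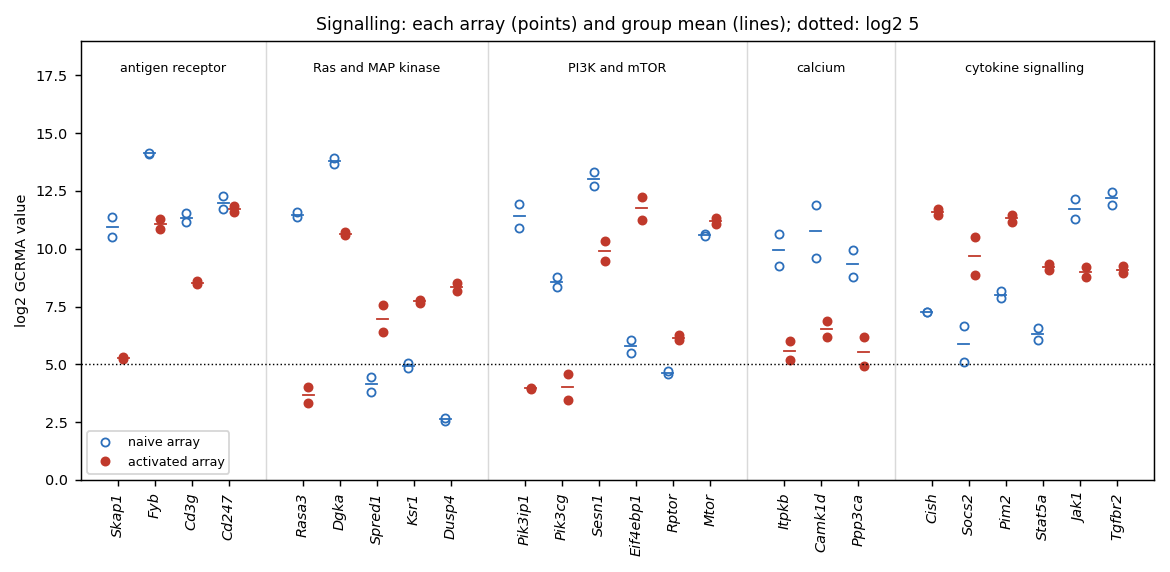
Log2 GCRMA values of signalling genes on each naive (open blue) and activated (filled red) CD4 array, with a line for each group mean and a dotted line at log2 5. Rasa3 and Pik3ip1 read 10.89 or above in the naive and 4.02 or below in the activated arrays, and Eif4ebp1, Dusp4 and Cish rise.

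Homing receptors guide T cells to lymph nodes and gut and let them leave. Of 14 tested genes of homing and egress 8 were called lower and 1 higher (median -1.42), and 6 were lower without naive array 2 or without activated array 1. Itga4 and Itgb7 encode the 2 chains of the gut-homing integrin. Itga4 fell from 12.23 and 12.54 in the naive to 5.81 and 8.10 in the activated arrays (-5.43 ± 0.50, adjusted p = 5.31e-06), and Itgb7 fell from 11.63 and 12.15 in the naive to 6.91 and 7.27 in the activated arrays (-4.80 ± 0.55, adjusted p = 2.60e-05). Ccr9, the chemokine receptor of the small intestine, fell from 10.75 and 10.72 in the naive to 4.99 and 6.72 in the activated arrays (-4.88 ± 0.44, adjusted p = 3.88e-06). The gut-homing receptors thus fell together. Ccr7, the lymph node entry receptor, went the other way and rose from 9.75 and 9.99 in the naive to 11.52 and 11.42 in the activated arrays (1.60 ± 0.27, adjusted p = 4.49e-04). S1pr4, a receptor for sphingosine 1-phosphate, fell from 9.73 and 9.75 in the naive to 7.87 and 7.87 in the activated arrays (-1.87 ± 0.30, adjusted p = 3.48e-04). S1pr1, the egress receptor, read 5.48 and 5.46 in the naive and 4.73 and 4.74 in the activated arrays and, differing by less than 2-fold, was not called (-0.73 ± 0.24, adjusted p = 0.0296). Among 12 tested chemokine receptors 3 were lower and 1 higher, against 18.2% and 14.9% over all genes tested. Cxcr3, a receptor of inflamed tissue, fell from 9.88 and 11.38 in the naive to 5.17 and 6.19 in the activated arrays (-4.95 ± 0.61, adjusted p = 4.47e-05), and Cxcr4 was at least 1.15 lower.

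Adhesion molecules followed. Of 37 tested integrin and adhesion genes 15 were called lower and 2 higher (median -1.03), and 1 was higher without naive array 1. Itgb2, the beta chain of LFA-1, fell from 12.25 and 12.72 in the naive to 10.37 and 9.90 in the activated arrays (-2.35 ± 0.53, adjusted p = 0.00329), and its alpha chain Itgal differed by -1.17 ± 0.34, a call that was lost without naive array 2 or without activated array 1. Itga6 and Itgb3 differed by -3.37 ± 0.38 and -4.89 ± 0.40. Alcam, the ligand of CD6, was called higher (1.97 ± 0.40), although another of its probe sets had the opposite sign. Icam1 (1.16 ± 0.66) and Cd44 (0.31 ± 0.30), adhesion molecules often used to mark activation, were not called.

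The cytoskeleton of moving cells was lower in many genes. Of 58 tested genes of actin and motility 26 were called lower and 2 higher (median -0.88), and between 24 and 28 were lower when any 1 CD4 array was left out. The higher count was 1 without naive array 1 or without either activated array. Arhgef18, a guanine nucleotide exchange factor, fell from 13.04 and 13.30 in the naive to 7.99 and 6.52 in the activated arrays (-5.92 ± 0.68, adjusted p = 2.60e-05). Arhgap45, Arhgap4 and Arhgap15, which encode GTPase-activating proteins, differed by -4.12 ± 0.40, -4.06 ± 0.47 and -3.71 ± 0.50. Dock10, an activator of Cdc42 and Rac, differed by -1.88 ± 0.40 and Coro1a, an actin-binding protein, by -1.52 ± 0.34. Cofilin, Cfl1, was near the top of the scale and not called (15.58 and 15.59 in the naive and 15.47 and 15.47 in the activated arrays, -0.12 ± 0.21, adjusted p = 0.751). The tubulin gene Tubb5 was called higher (1.44 ± 0.34).

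Sialic acid and branched glycans cover the proteins of the cell surface. In the list of sialic acid and N-glycan branching 10 of 27 tested genes were called lower and 1 higher, the same counts without any 1 CD4 array. Cmah, which converts sialic acid to its glycolyl form, fell from 12.52 and 12.89 in the naive to 4.69 and 6.36 in the activated arrays (-7.18 ± 1.30, adjusted p = 7.88e-04). St8sia6, a sialyltransferase that adds a further sialic acid, fell from 11.53 and 11.26 in the naive to 5.84 and 4.02 in the activated arrays (-6.46 ± 0.60, adjusted p = 5.31e-06). St6gal1, which adds sialic acid to N-glycans, fell from 13.19 and 13.79 in the naive to 9.03 and 11.04 in the activated arrays (-3.46 ± 0.63, adjusted p = 7.78e-04). In all 3 the activated arrays lay below both naive arrays. St6galnac4 was the member called higher (4.10 ± 0.52). Among 23 tested enzymes of selectin ligands and O-glycans 7 were lower and 4 higher, but 3 were lower without activated array 1 and 4 without activated array 2. Fut4, a fucosyltransferase, fell from 8.35 and 8.11 in the naive to 4.87 and 5.12 in the activated arrays (-3.23 ± 0.62, adjusted p = 0.00119). Chst2, which adds sulfate to such ligands, was at least 0.68 higher.

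At the entry to the endoplasmic reticulum 13 of 47 tested genes were called higher and 3 lower (median 0.58), with 8 higher without naive array 1. Calr (calreticulin), a folding helper, rose from 11.11 and 11.39 in the naive to 13.39 and 12.97 in the activated arrays (1.93 ± 0.25, adjusted p = 6.38e-05). Trib3 and Chac1, known targets of the stress response through ATF4, were at least 3.79 and 2.06 higher, the latter a call that was lost without naive array 2. Sec11c, of the signal peptidase, fell from 13.97 and 13.97 in the naive to 11.22 and 11.48 in the activated arrays (-2.62 ± 0.24, adjusted p = 4.93e-06). Hspa5 (BiP), the main chaperone there, was not called (0.58 ± 0.40). Further on, between the endoplasmic reticulum, Golgi and endosomes, 4 of 56 tested genes were higher and 11 lower (median 0.05), the latter near the 18.2% over all genes tested; without naive array 1 the counts were 2 and 16, and without naive array 2 they were 7 and 8. Ehd1, which returns receptors from endosomes to the surface, rose from 9.02 and 9.64 in the naive to 12.63 and 12.90 in the activated arrays (3.44 ± 0.34, adjusted p = 8.28e-06). Stx11, a fusion protein of cytotoxic granules, rose from 8.51 and 8.71 in the naive to 11.03 and 11.77 in the activated arrays (2.79 ± 0.27, adjusted p = 6.60e-06). Rab37 and Rab27a, GTPases of secretory vesicles, differed by -4.26 ± 0.47 and -1.81 ± 0.33, and the endosome genes Stx7 and Ehd3 by -1.53 ± 0.24 and -3.15 ± 0.68. Arf6 (0.14 ± 0.21) and Snx5 (0.11 ± 0.21) were bright in both states.

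**Figure D4:**
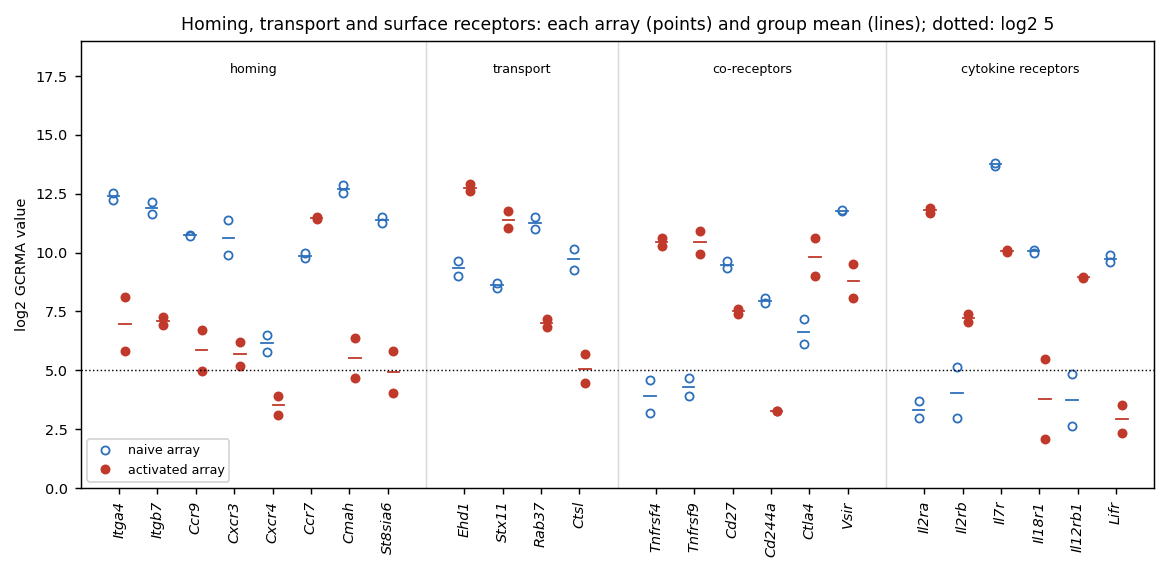
Log2 GCRMA values of genes of homing, transport and surface receptors on each naive (open blue) and activated (filled red) CD4 array, with a line for each group mean and a dotted line at log2 5. Il2ra, Tnfrsf4 and Tnfrsf9 lie under 5 in both naive arrays and at 9.95 or above in both activated arrays, and the gut-homing genes Itga4, Itgb7 and Ccr9 fall.

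Co-stimulatory receptors moved in both directions. Of 18 tested 4 were called higher and 8 lower, the latter 5 without naive array 2. The higher genes included 3 receptors of the TNF family. Tnfrsf4 (OX40) rose from 3.20 and 4.58 in the naive to 10.26 and 10.64 in the activated arrays, at least 5.45 higher (6.56 ± 0.54, adjusted p = 2.01e-06). Tnfrsf9 (4-1BB) rose from 3.89 and 4.68 in the naive to 9.95 and 10.93 in the activated arrays, at least 5.44 higher, and Tnfrsf18 (GITR) rose from 6.62 and 7.61 in the naive to 9.78 and 10.45 in the activated arrays (adjusted p = 4.96e-05). Cd27, a receptor of the same family on resting cells, fell from 9.34 and 9.63 in the naive to 7.41 and 7.62 in the activated arrays (-1.97 ± 0.30, adjusted p = 2.31e-04). Receptors of the SLAM family divided, with Slamf1 higher (1.72 ± 0.34) and Cd84 (-3.25 ± 0.57) and Cd244a, which was at least 2.95 lower, on the other side. Icos and Cd28 were expressed in both states and not called, at 0.61 ± 1.00 and 0.56 ± 0.66.

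Inhibitory receptors and ligands gave 3 of 17 tested genes higher and 5 lower, against 14.9% and 18.2% over all genes tested. Ctla4, which competes with Cd28 for its ligands, rose from 6.12 and 7.16 in the naive to 9.02 and 10.60 in the activated arrays (3.17 ± 0.59, adjusted p = 9.61e-04). Cd200 rose from 10.03 and 9.47 in the naive to 11.96 and 12.48 in the activated arrays (2.47 ± 0.47, adjusted p = 0.00116). Vsir (VISTA), a receptor that keeps naive T cells quiet, fell from 11.76 and 11.80 in the naive to 8.09 and 9.53 in the activated arrays (-2.97 ± 0.36, adjusted p = 4.37e-05), and Cd96, a receptor for adhesion proteins, fell from 11.26 and 11.63 in the naive to 8.67 and 7.55 in the activated arrays. Lair1, a collagen receptor that monocytes also carry, was at least 1.07 lower. Btla (-0.41 ± 0.84) and Cd274 (0.55 ± 0.33), which encodes PD-L1, were not called. Several of these receptors are also markers of regulatory T cells, whose list of 6 measured genes summed to 32.05 and 36.69 in the naive and 52.41 and 61.22 in the activated arrays. That sum holds Il2ra, Ctla4, Tnfrsf4 and Tnfrsf18 themselves, and Ikzf2 of the same list read 9.38 and 9.61 in the naive and 7.66 and 9.08 in the activated arrays. Foxp3, the defining gene of that list, exceeded 5 on activated array 2 alone, and the part of regulatory T cells in these rises was not tested.

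Receptor chains for interleukin 2 rose while many other cytokine receptors fell. Among 9 tested genes of the common gamma chain group 2 were called higher and 3 lower, the same without any 1 CD4 array. Il2ra, the chain that gives high affinity for interleukin 2, rose from 3.68 and 2.97 in the naive to 11.70 and 11.90 in the activated arrays, at least 6.80 higher (8.47 ± 0.25, adjusted p = 1.91e-10). Il2rb, its signalling partner, rose from 2.97 and 5.12 in the naive to 7.05 and 7.40 in the activated arrays (3.18 ± 0.52, adjusted p = 3.47e-04). Il7r, the survival receptor of naive cells, fell from 13.69 and 13.80 in the naive to 10.11 and 10.03 in the activated arrays (-3.67 ± 0.65, adjusted p = 6.85e-04). Il4ra (-0.07 ± 0.38) and Il21r (-0.04 ± 0.34) were not called. Of 21 other cytokine receptors 13 were called lower and 1 higher (median -1.84). The higher one, Il12rb1, a chain of the receptors for interleukins 12 and 23, rose from 2.65 and 4.85 in the naive to 8.97 and 8.93 in the activated arrays, at least 3.95 higher. Il18r1 fell from 10.11 and 10.00 in the naive to 2.07 and 5.47 in the activated arrays (-6.29 ± 0.95, adjusted p = 2.16e-04), and its partner Il18rap was at least 2.04 lower. Il27ra and Ifngr1, receptors of interleukin 27 and gamma interferon, differed by -2.27 ± 0.23 and -1.84 ± 0.33. Lifr, the receptor of leukemia inhibitory factor, was at least 4.74 lower. Receptor genes of myeloid cells were called lower in both groups. Csf1r belongs to the other cytokine receptors. Csf2rb and Csf2rb2, with Il7r, were the 3 lower genes of the common gamma chain group, which also holds related receptors. Csf2rb fell from 9.83 and 10.85 in the naive to 6.57 and 7.30 in the activated arrays, and Csf2rb2 fell from 10.55 and 11.67 in the naive to 4.33 and 5.67 in the activated arrays. Monocyte markers, a list that holds Csf1r itself, moved with them, at summed levels of 45.72 and 53.85 against 33.10 and 33.88, and their part in these falls was not tested. In the longer list the lower count fell when any 1 CD4 array was left out, alike for either naive array. The higher count rose without naive array 2 or without activated array 1.

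Other surface molecules numbered 48 tested, with 4 called higher and 21 lower (median -0.88), and 2 higher without naive array 1. Vipr1, the receptor for vasoactive intestinal peptide on resting T cells, fell from 10.71 and 10.64 in the naive to 4.98 and 5.44 in the activated arrays (-5.46 ± 0.29, adjusted p = 7.16e-08). Cd55, a shield against complement, fell from 10.57 and 10.64 in the naive to 6.27 and 5.62 in the activated arrays (-4.66 ± 0.51, adjusted p = 1.87e-05). Adgre5 (CD97) fell from 10.84 and 12.23 in the naive to 7.14 and 6.16 in the activated arrays, and Ramp1, a partner of a neuropeptide receptor, was at least 2.17 lower. Cd24a, a small sugar-bearing protein, rose from 9.27 and 9.28 in the naive to 11.58 and 12.27 in the activated arrays (2.65 ± 0.56, adjusted p = 0.00221). Cd83 rose from 4.98 and 6.96 in the naive to 8.66 and 9.04 in the activated arrays (2.88 ± 0.71, adjusted p = 0.00584) and lost its call without naive array 1. Cd69, often read as an early mark of activation, was high in both states and not called at 11.24 and 11.28 in the naive and 12.43 and 12.64 in the activated arrays (1.27 ± 0.80, adjusted p = 0.247). Genes of class II antigen presentation, which T cells of the mouse make little of, were high in the naive arrays. H2-Ob, a chain of a class II-like molecule, fell from 12.72 and 12.56 in the naive to 3.47 and 4.84 in the activated arrays, at least 7.64 lower. H2-Aa, a class II chain, fell from 12.55 and 13.40 in the naive to 8.88 and 9.68 in the activated arrays. The B cell markers Cd79a and Pax5 were near background on all 4 arrays. Of 9 measured B cell markers, however, 7 and 4 lay above 5 in the naive and 3 and 4 in the activated arrays. Ms4a1 read 8.32 and 7.16 in the naive and 6.54 and 6.12 in the activated arrays. The summed level of the B cell marker list was 52.44 and 49.00 in the naive and 40.64 and 40.99 in the activated arrays. The dendritic cell list, which holds H2-Aa itself, summed to 47.37 and 53.81 in the naive and 34.97 and 36.27 in the activated arrays. The part of other cells in these falls was not tested.

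Secreted factors were higher in 8 of 23 tested genes and lower in 3 (median 0.56). Il2, the growth factor of T cells, rose from 4.56 and 3.61 in the naive to 8.60 and 8.66 in the activated arrays, at least 3.63 higher (4.54 ± 0.38, adjusted p = 2.47e-06). Il4, the cytokine of type 2 helper cells, was at least 1.38 higher, and Lif, of the interleukin 6 family, at least 5.04 higher. Ccl22, a chemokine for regulatory and type 2 helper cells, read 8.74 and 11.05 in the activated arrays and 3.02 or below in the naive arrays, at least 4.89 higher. Il21, which helps B cells, rose from 3.46 and 6.34 in the naive to 9.01 and 10.01 in the activated arrays (4.61 ± 1.06, adjusted p = 0.00397), a call that was lost without naive array 1. Ifng, the cytokine of type 1 helper cells, read 9.40 and 9.92 in the naive and 10.65 and 13.54 in the activated arrays and was not called (2.44 ± 0.93, adjusted p = 0.0551), with the activated arrays far apart. Tnf was not called either (2.42 ± 0.98, adjusted p = 0.0693). Ccl5 fell from 10.56 and 11.42 in the naive to 3.66 and 7.94 in the activated arrays (-5.19 ± 1.03, adjusted p = 0.00145). Ccl5, Ifng and Cxcr3 were thus above 5 on both arrays labelled naive, and the part of cells activated earlier was not tested. Lta, of the TNF family, rose from 2.97 and 7.24 in the naive to 9.53 and 9.63 in the activated arrays (4.47 ± 0.89, adjusted p = 0.0015). In that family, 2 of 15 tested genes were higher and 2 lower, against 14.9% and 18.2% over all genes tested. The higher count fell without naive array 2. The lower count fell without either naive array, and the lower calls were lost without either activated array.

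Whether activation did the same in CD4 and CD8 T cells was read from the CD8 arrays, which share no array with the CD4 comparison, although both were estimated in 1 fit. In CD8 T cells 1411 genes (14.4%) were called higher and 1538 (15.7%) lower. Of the CD4 genes called higher 1096 were also called higher in CD8 cells, which is 74.8% of the CD4 and 77.7% of the CD8 genes. Of those called lower 1225 were shared, 68.6% of the CD4 and 79.6% of the CD8 genes. A gene called in 1 of the cell types only is not thereby shown to differ between them. The difference of the effects, tested as an interaction, was called for 65 genes (0.663%), of which 33 were more positive and 32 more negative in CD4 cells, and 18 of the 65 belong to the lists. The count was 22 in a fit of the 8 T cell arrays alone, and 26 with the genes filtered on the 4 CD4 arrays. Naive CD4 and CD8 arrays of one number were alike in the Y-linked Eif2s3y, which read 12.84 and 3.23 on naive CD4 arrays 1 and 2 and 11.76 and 3.36 on naive CD8 arrays 1 and 2. The X-linked Xist read 4.28 on naive CD4 array 1 and 9.88 on naive CD8 array 1. Whether such arrays came from the same mice was not tested; with a block for the number in each state, shared by both lineages and chosen after the data were seen, 81 differences were called.

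Some of these genes changed more in CD4 cells. For genes under 5 on both arrays of a group, such as Dusp4, Il4, Il17rb and Slc6a19, the size of the difference rests in part on values near background. Dusp4 rose by 5.72 ± 0.25 in CD4 cells and from 2.97 and 2.98 to 5.87 and 5.81 in CD8 cells, a difference of effects of 2.85 ± 0.35, adjusted p = 7.67e-04. Ehd1 rose by 3.44 ± 0.34 in CD4 cells, while in CD8 cells it read 12.17 and 12.26 in the naive and 12.14 and 13.21 in the activated arrays. It was thus bright in CD8 cells before activation. Il4 rose in CD4 cells and read 2.15 or below in all 4 CD8 arrays (3.42 ± 0.70, adjusted p = 0.0442), though this call was lost in 12 other settings, among them without either activated CD4 array, without naive CD4 array 1 and without any 1 CD8 array. St8sia6 and Pdlim4, an adaptor of the cytoskeleton, fell in CD4 cells and were at or near background in naive CD8 cells. Pdlim4 read 5.81 and 6.78 in the naive and 1.81 and 1.82 in the activated arrays in CD4 cells and between 1.77 and 1.79 in CD8 cells (-4.47 ± 0.36, adjusted p = 2.69e-05). St8sia6 read 4.39 and 5.29 in the naive and 3.53 and 3.37 in the activated arrays of CD8 cells (-5.08 ± 0.85, adjusted p = 0.012). Naive CD4 cells thus had the higher level of both before activation. The call for St8sia6 was lost without naive CD8 array 1. Skap1 fell in both lineages, in CD8 cells from 10.57 and 10.77 to 8.82 and 7.42, and the difference of effects was -3.11 ± 0.53, adjusted p = 0.0148. That call was lost without naive CD4 array 1 or naive CD8 array 1, and with the probe set brightest in the CD4 arrays. Il17rb, a receptor chain for interleukin 25, fell from 5.48 and 7.82 in the naive to 2.90 and 3.03 in the activated arrays of CD4 cells and was at 2.88 or below in CD8 cells, a difference (-3.67 ± 0.71, adjusted p = 0.033) whose call was lost without either activated CD4 array or any 1 CD8 array. P2rx7, a receptor for extracellular ATP, fell from 8.32 and 8.69 in the naive to 3.90 and 4.14 in the activated arrays of CD4 cells and read 4.87 and 4.75 in the naive and 3.74 and 4.14 in the activated arrays of CD8 cells, and its call (-3.62 ± 0.75, adjusted p = 0.0493) was lost in 16 other settings. Mapk11 (p38 beta) fell from 7.18 and 7.53 in the naive to 5.42 and 5.47 in the activated arrays of CD4 cells and was not called in CD8 cells (-2.19 ± 0.38, adjusted p = 0.0148), and the call of the difference was lost without naive CD4 array 2, activated CD4 array 1 or naive CD8 array 2.

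Other genes changed more in CD8 cells. Ccl4 and Xcl1, chemokines of cytotoxic cells, and Zbtb32, a transcriptional repressor, rose in CD8 cells, from 3.43 and 2.78 to 7.92 and 8.47, from 3.20 and 3.93 to 8.08 and 7.14 and from 3.37 and 3.35 to 6.98 and 7.16. In CD4 cells all 3 stayed at 3.82 or below on each of the 4 arrays, with differences between the effects of -5.40 ± 0.60, adjusted p = 3.16e-04, -3.96 ± 0.40, adjusted p = 1.80e-04 and -3.48 ± 0.35, adjusted p = 1.46e-04. Cd320, a vitamin B12 receptor, rose in both and more in CD8 cells (-2.71 ± 0.48, adjusted p = 0.0169), a call that was lost without naive CD4 array 1, naive CD8 array 2 or activated CD8 array 2. Itgae (CD103), the integrin chain of cells in epithelia, read 11.47 and 11.95 in the naive and 6.57 and 4.73 in the activated arrays of CD8 cells and 5.26 and 5.29 in the naive and 4.76 and 3.73 in the activated arrays of CD4 cells (5.03 ± 0.88, adjusted p = 0.0157), and the call was lost without naive or activated CD4 array 1 or naive CD8 array 2. Slc6a19, a carrier of neutral amino acids, read 8.24 and 8.50 in the naive and 3.34 and 3.38 in the activated arrays of CD8 cells and 3.51 or below in CD4 cells (5.14 ± 0.26, adjusted p = 3.13e-07). Tnfrsf25 (DR3) and Cd7 fell in both lineages, and more in CD8 cells, with differences of 2.72 ± 0.40, adjusted p = 0.00428 and 3.30 ± 0.61, adjusted p = 0.0218. The call for Cd7 was lost without either activated CD4 array, without naive CD8 array 2 and without either activated CD8 array. Atp2b4, a pump that removes calcium from the cell, read 7.33 and 7.58 in the naive and 5.26 and 5.29 in the activated arrays of CD8 cells and was not called in CD4 cells, and its call (2.02 ± 0.39, adjusted p = 0.033) was lost in 11 other settings. 

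**Figure D5:**
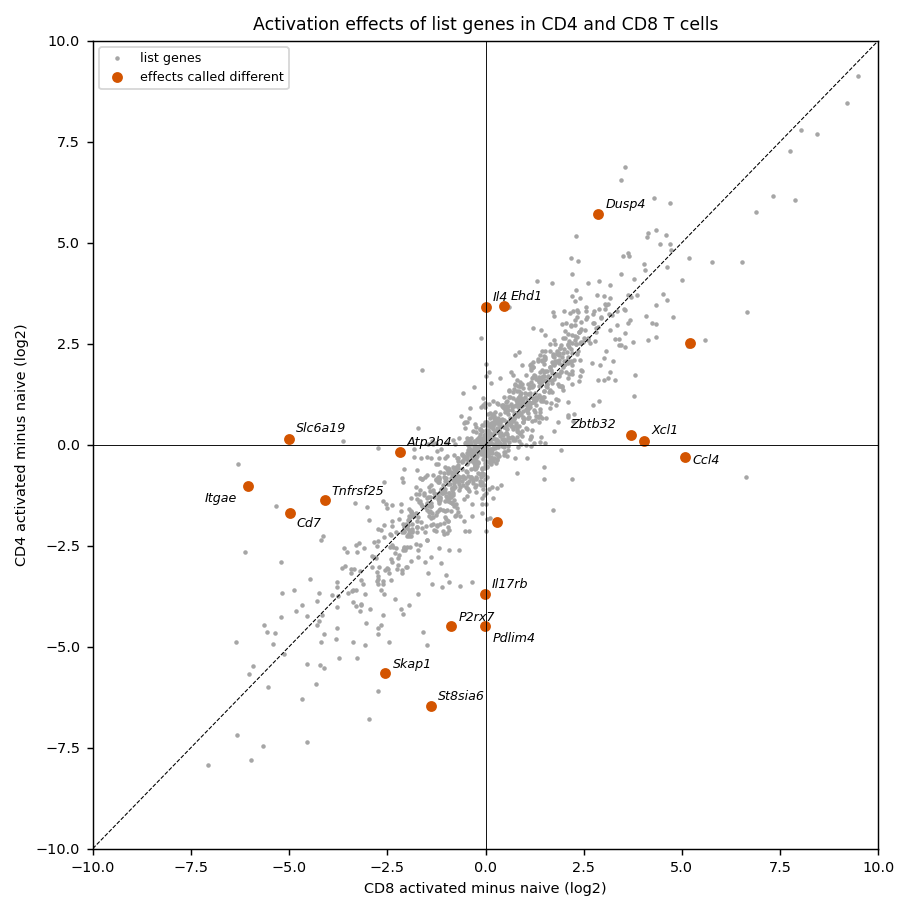
Activated minus naive difference (log2) of the 1321 tested list genes in CD4 T cells (vertical axis) against CD8 T cells (horizontal axis), with a dashed line where both are equal. The 18 genes whose effects were called different are drawn in orange and the 16 with the largest differences are named; Ccl4, Xcl1 and Zbtb32 lie to the right at a CD4 value near 0.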

How the data were processed

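RNA from the sorted cells was amplified by 2 rounds of in vitro transcription and hybridised to Affymetrix Mouse430_2 arrays, per the labels. The authors deposited log2 values for 45101 probe sets on 20 arrays, made with GCRMA per the submitters' processing notes; the version is not given in the sources used here. Array number limits the precision.

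Among probe sets that carry 1 symbol, the one brightest on average stood for its gene, which gave 18193 genes. The 9810 genes above log2 5 on at least 2 of the 20 arrays entered 1 model of all arrays, in which each cell type had its own mean (10 residual degrees of freedom), with limma 3.58.1 in R 4.3.3 and Benjamini-Hochberg adjustment over all of them. The model and its calls were tested on simulated data of 9810 genes. With log2 changes of 1.5 and 3 put into 100 genes each, 45% and 89% were called in the CD4 comparison and 21% and 60% for the difference between CD4 and CD8 effects.

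The genes, lists and tests were chosen with earlier results of these data known. In each list up to 5 called genes with the largest rise, 5 with the largest fall and 3 uncalled genes of highest level were open to naming. Of all genes it was the 6 largest each way, and of differences between the lineages the 8 largest each way; other list members are named where a list is accounted for, and marker genes where a result turns on them. Promoters shown were picked after their values were seen. The alternatives were the arrays in the fit, the filter, the scaling, the probe set, the variance model, array weights, a replicate block, a block shared by CD4 and CD8 arrays of a state (chosen after the data were seen), a test against a 2-fold change and leaving out each array.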

Additional observations from a re-analysis of the deposited data

Results flagged for a closer look

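The change on activation differed between CD4 and CD8 T cells, by a test of the difference itself in the limma model, for 65 genes. The values below are the CD4 change minus the CD8 change on the log2 scale.

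It was negative, a lower change in CD4 cells, for the chemokine genes Ccl4 (-5.40) and Xcl1 (-3.96), the sialyltransferase gene St8sia6 (-5.08), the adaptor genes Pdlim4 (-4.47) and Skap1 (-3.11), the receptor genes Il17rb (-3.67) and P2rx7 (-3.62) and the repressor gene Zbtb32 (-3.48). It was positive for the carrier gene Slc6a19 (5.14), the integrin gene Itgae (5.03), the cytokine gene Il4 (3.42), the surface genes Cd7 (3.30) and Tnfrsf25 (2.72), the recycling gene Ehd1 (2.98), the phosphatase gene Dusp4 (2.85) and the calcium pump gene Atp2b4 (2.02).

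Of the 18 list genes with such a difference, 5 were called under every alternative that tested them, other than the test against a 2-fold change. These were Ccl4, Dusp4, Pdlim4, Slc6a19 and Zbtb32.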

How the results depend on the processing

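A test against a 2-fold change (limma's treat) called 494 genes higher and 743 lower in activated CD4 cells and 26 differences between CD4 and CD8 effects. The latter numbered 22 with only the 8 T cell arrays in the fit and 26 with the filter on the 4 CD4 arrays. Leaving out 1 array gave 1062 to 1340 higher, 1309 to 1722 lower and 53 to 82 different genes. Of the 570 genes open to naming, the 388 called in CD4 cells were checked for a turn of direction. Stat3 alone turned in these settings, to 0.18 with the probe set brightest in CD4 arrays. Each setting used 1 probe set per gene. Called genes that are in lists or open to naming had 386 other probe sets above log2 5 on at least 2 CD4 arrays. Of these probe sets 25 had the opposite sign. Of the 388 genes open to naming and called in CD4 cells, 281 were called under each alternative but treat that tested them. With the replicate number as a block, 1440 genes were higher, 1774 lower and 72 different. Deviations of same-numbered arrays correlated at -0.001 between CD4 states, 0.164 between CD8 states, and between CD4 and CD8 at 0.123 in naive and 0.213 in activated arrays. A block by number in each state, shared by CD4 and CD8 and chosen after seeing the data, gave 1221, 1458 and 81, and the call of Klf2 was lost. Of the calls, 45.1% were higher, against 42.0% with median centring and 48.6% with quantile normalization, and the majority direction of calls turned in 0 lists under either. Signal limits 1430 tested genes that were under log2 5 on all 4 CD4 arrays.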
